A study of Mus musculus with 4 samples.

Results

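Early myeloid progenitors that carried Mpo and Cd34 transcripts numbered 1336 of the 38887 filtered cells in 3 libraries of Kit+ bone marrow cells, and they were chosen by their raw transcript counts. A transcript was counted by its unique molecular identifier (UMI). A member had at least 5 UMIs of Mpo and at least 1 of Cd34. It had fewer than 10 of Elane, fewer than 2 of Flt3, fewer than 3 each of Car1 and Cd79a, and none of Hlf, F13a1 or Fcer1a. Elane marks promyelocytes, Flt3 lymphoid-primed and dendritic precursors, Car1 erythroid cells, Cd79a B-lineage cells, Hlf stem cells, F13a1 monocytes, and Fcer1a mast cells and basophils. The values of these 9 genes in the members follow from the rule and are given only as a description.

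The cells came from mice 10 weeks after transplantation and were sorted for the CD45.2 form of the pan-leukocyte protein CD45, by which transplanted cells are recognised, and for Kit, the stem cell factor receptor. The first library is called control, the second Mll3/4 deleted and the third Mll3/4SI. The labels do not expand SI, name no allele, promoter or Cre driver, and do not say how many mice entered a library. Each group was 1 library, so no test between groups was possible. Intervals are exact 95% intervals that cover counting error only, and differences between mice or preparations are not in them. Mll3 (Kmt2c) and Mll4 (Kmt2d) are histone H3 lysine 4 methyltransferases of the COMPASS family that act mainly at enhancers.

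Mpo encodes myeloperoxidase, the enzyme that makes hypochlorous acid in neutrophil azurophil granules. Its transcript appears in granulocyte and monocyte progenitors before those of the granule proteases reach high levels. Cd34 is a surface sialomucin of stem and progenitor cells that is lost as they mature. Cells with both therefore lie between the stem cell compartment and committed promyelocytes, where the neutrophil, monocyte and mast or basophil fates have not fully parted.

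The control library held 428 members among 11891 filtered cells, or 3.599% (3.27 to 3.95). The Mll3/4SI library held 894 among 12081, or 7.40% (6.94 to 7.88), a share 2.06 times that of control (1.83 to 2.31). The Mll3/4 deleted library held 14 among 14915, or 0.0939% (0.0513 to 0.157), a log2 ratio to control of -5.26. The median filtered cell had 12199 UMIs in control, 6832 in deleted and 12349 in SI, and the rule counts raw UMIs. With each cell thinned to 5000 UMIs before the rule the shares were 6.69%, 0.280% and 12.4%, which puts deleted at -4.58 against control on the log2 scale. Cells under 5000 UMIs then drop out, and every limit of the rule applies to the thinned counts. The cells that met it numbered 703, 28 and 1364, a different set from the members. Values given below after thinning before the rule are for that set. Without thinning and with no Cd79a UMI allowed, deleted stood at -6.07. Most filtered cells of the deleted library, 13743, had at least 3 Cd79a UMIs and so were B-lineage by transcript. Among cells with fewer Cd79a UMIs the share of members was 3.62% in control, 1.20% (0.655 to 1.996) in deleted and 7.42% in SI. The deleted share was thus 0.330 times that of control (0.179 to 0.560) on that base. A share cannot tell more cells of this kind from fewer cells of the other kinds.

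**Figure D1:**
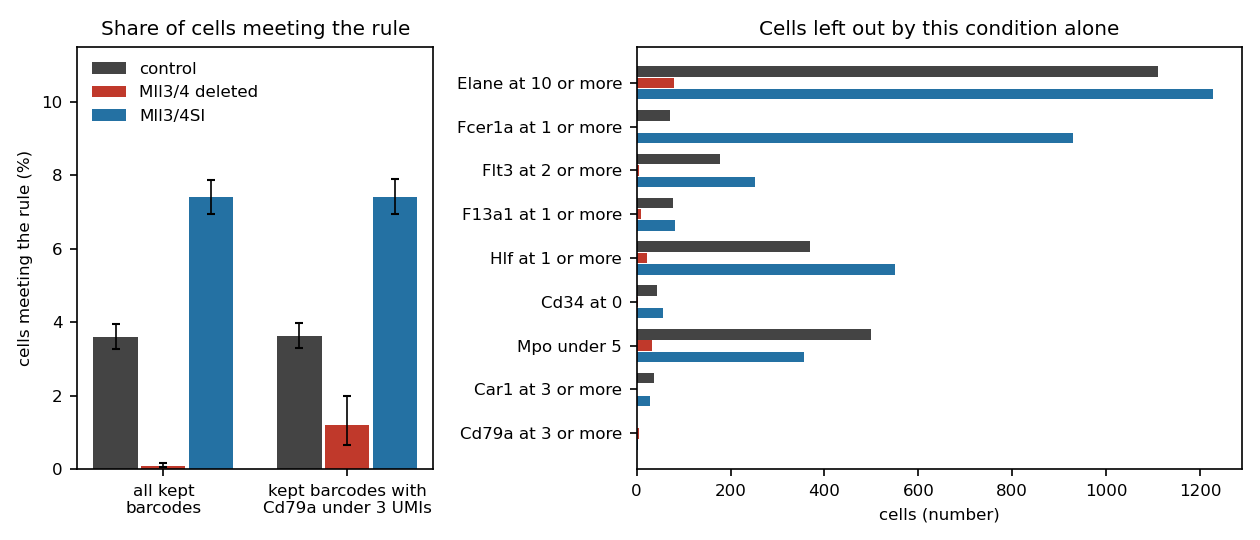
Left, cells meeting the rule as a percentage of all filtered barcodes or of those with fewer than 3 Cd79a UMIs, with exact 95% binomial intervals, in the control, Mll3/4 deleted and Mll3/4SI libraries. Right, the number of cells that failed only the named condition; the Fcer1a bar is 929 cells in SI and 70 in control.

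The cells that missed membership by 1 condition alone described the surroundings of the population. With Elane at 10 or more there were 1111 such cells in control, 80 in deleted and 1228 in SI. With Fcer1a, the alpha chain of the high-affinity IgE receptor of mast cells and basophils, there were 70 in control, 1 in deleted and 929 in SI. Per member that is 0.164 cells in control and 1.04 in SI. With the condition on Fcer1a dropped, the share became 4.19% in control and 15.1% in SI. Cells with at least 1 UMI of Hlf, a transcription factor of stem cells, numbered 370, 21 and 550. Near the Mpo threshold, 29 control and 32 SI members had exactly 5 UMIs, and 30 control and 45 SI cells that met every other condition had 4. At the Elane threshold, 6 control and 13 SI members had 9 UMIs, and 12 and 10 cells just outside had 10.

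Depth in the members ran from 1247 to 23867 UMIs in control (median 8099.5), from 3416 to 21094 in deleted (median 9086) and from 1067 to 31407 in SI (median 10590). Summed over members this gave 3656753, 149999 and 10136888 UMIs. One UMI was therefore worth 0.273 CPM in control, 6.67 in deleted and 0.0987 in SI, where CPM (counts per 1000000) is a gene's UMIs scaled to that many UMIs over the members of the library. In the deleted library the 3 deepest cells held 36.6% of the UMIs. No barcode was a member in 2 libraries. The deleted members had 36 UMIs of the Y-linked genes Ddx3y, Eif2s3y, Kdm5d and Uty and none of Xist. The control and SI members had no UMIs of these 4 genes and 534 and 486 CPM of Xist, so sex and genotype cannot be told apart in the deleted library. Kmt2c was at 71.4 CPM in control, 53.3 in deleted (8 UMIs) and 64.2 in SI. Kmt2d was at 25.7, 13.3 (2 UMIs) and 19.8 CPM. Counts from the 5′ ends of transcripts do not show an internal deletion or a point change, and these few UMIs cannot check the label.

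The rule genes took the levels that follow. Mpo (chr11:87793581-87804413, GRCm38) stood at 3791 CPM in control, 5400 in deleted and 7373 in SI, with medians of 21.5, 43 and 46 UMIs per member. Members with at least 30 Mpo UMIs made up 41.6% in control and 61.1% in SI. Cd34 was even across the libraries, at 528, 553 and 483 CPM. Elane stood at 273, 180 and 238 CPM. Mpo transcripts were not unique to these cells: of cells with at least 3 UMIs each of Klf1 and Car1, an erythroid pair, 18.8% in control (338 of 1794) and 18.0% in SI (134 of 746) also had 5 or more Mpo UMIs. In the deleted library it was 0 of 45 (0 to 7.87%). The median control cell with that erythroid pair had 1 Mpo UMI and 23221.5 UMIs in all, so the threshold of 5 lay above most of that background. Of cells with at least 3 Cd79a UMIs, 258 of 13743 in deleted (1.88%) had 5 or more Mpo UMIs. In control it was 11 of 54 (20.4%) and in SI 6 of 28 (21.4%).

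Genes the rule did not use fitted the label. The azurophil proteases Prtn3 and Ctsg, which with elastase fill the primary granules, were at 1792 and 1657 CPM in control members and at 1794 and 2320 CPM in SI. The 14 azurophil genes summed to 6509 CPM in control members and to 1299 CPM in the control cells with Klf1 and without Mpo. That reference was chosen for lacking Mpo, so a gap in genes expressed with Mpo follows in part from the choice. In control cells left out by 1 condition alone the sum was 18641 (Elane), 7308 (Fcer1a), 6898 (F13a1) and 5006 CPM (Flt3). The level was thus not particular to the members. Spi1 (PU.1) and Cebpa, the factors that set the granulocyte and monocyte fate, were at 262 and 87.2 CPM in control. Markers of other lineages ranged widely. Mast and basophil genes summed to 932 CPM in control and 1655 in SI, and monocyte and dendritic genes to 788 and 1033, both fates that lie close to these cells. The 10 T and NK genes summed to 3.83 CPM in control, 13.3 in deleted (2 UMIs) and 3.45 in SI, with 8, 9 and 4 of them at 0. The 20 B-lineage genes summed to 92.7 CPM in control and 66.6 in SI, with 10 at 0 in each, and Cd79b alone was at 42.9 and 45.3 CPM. The 20 erythroid genes summed to 379, 313 and 221 CPM.

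Between SI and control members most genes were close. Of 6926 genes outside the rule with a mean of at least 20 CPM over the 3 libraries, 50 were higher in SI by 2-fold or more (0.722%) and 64 were lower by that much (0.924%). The median log2 ratio was 0.04 and the median absolute log2 ratio 0.14, each with 1 CPM added, which understates the change of low genes. Among the 692 genes of at least 200 CPM, 5 were higher (0.723%) and 3 lower (0.434%). The sets described below are few genes on a largely shared profile.

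Mast and basophil genes differed within the list. Cpa3 (chr3:20215620-20242181), mast cell carboxypeptidase, was at 417 CPM in control members, 300 in deleted and 1042 in SI, a ratio of SI to control between 2.37 and 2.64. Hdc, histidine decarboxylase, which makes histamine, stood at 69.7, 100 and 173 CPM. Ms4a2, the beta chain of the IgE receptor, was at 25.2 CPM in control and 52.0 in SI, with no UMI in the deleted members. In contrast, the basophil protease gene Mcpt8 was at 42.1 CPM in control and 19.1 in SI, and the factor Gata2 at 109 and 90.6. Of the 13 genes listed, 7 passed the expression filter, 3 of them higher and 1 lower by 2-fold in SI, with a median log2 ratio of 0.32. That median was 0.10 without the condition on Fcer1a and 0.09 at 5 CPM, and it turned to -0.15 with no expression filter. Ms4a2, at a log2 ratio of 1.02, fell under 2-fold with fewer than 5 Elane UMIs (0.92), and Mcpt8, at -1.10, after thinning before the rule (-0.46). Summed over the 13 genes, the median member had, per 10000 of its own UMIs, 5.04 in control and 13.7 in SI, with lower quartiles of 2.18 and 5.71 and upper quartiles of 13.03 and 25.5. The lower quartile and the median, not the upper quartile alone, thus lay higher in SI. Cpa3 made up much of this sum, with 1524 of its 3407 UMIs in control and 10564 of 16772 in SI. Of the 13 genes, 6 had a log2 ratio above 0.

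Ms4a3, a membrane protein gene that marks granulocyte and monocyte progenitors, led the granule set. It lies at chr19:11629496-11640851. Its level was 205 CPM in control (190 to 220), 140 in deleted (21 UMIs) and 739 in SI (723 to 756). After each cell was thinned to 5000 UMIs, 41.8% of 371 control members and 72.9% of 794 SI members had a Ms4a3 UMI. The same step left Cpa3 in 49.1% and 74.1%. In the erythroid reference cells, thinned alike, Ms4a3 was found in 5.16% of control and 14.6% of SI cells and Cpa3 in 7.78% and 23.2%. That reference was chosen for lacking Mpo, so its lower shares follow in part from the choice. The neighbour gene Ms4a6c on the same chromosome, a gene of monocytes, was at 93.5, 100 and 323 CPM.

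The other azurophil genes were nearer to control. Of the 14 listed, all passed the filter, 1 (Ms4a3) was higher by 2-fold in SI and none lower, and the median log2 ratio was -0.01. Cst7, cystatin F, an inhibitor of cathepsins, was at 110 CPM in control and 187 in SI. Cd63, a granule membrane tetraspanin, was at 356 and 254 CPM. The ratio of SI to control for Prtn3 was 1.0 (0.973 to 1.03). The azurophil sum, which includes Ms4a3 (205 CPM in control and 739 in SI), was 1.16 times control (1.15 to 1.18). Among members of fewer than 30 Mpo UMIs the CPM of Prtn3 and of the azurophil sum were lower in SI. The values, and the limit that depth sets on them, are given for the Mpo groups.

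The myeloid transcription factors were also near control in SI. Of 25 genes, 19 passed the filter, none was higher by 2-fold and 1 lower, with a median log2 ratio of 0.08. Spi1 stood at 262 CPM in control and 313 in SI, Cebpa at 87.2 and 94.0, Runx1 at 428 and 494, Myb at 376 and 399, and Irf8, a factor of monocytes and dendritic cells, at 54.7 and 66.9. Hoxa9, a homeobox gene of stem and early progenitor cells, was the lower one, at 51.4 and 20.03 CPM. Cebpb was at 47.6 and 24.6 CPM and Etv6 at 588 and 383. Zeb2 was at 248 and 355 CPM.

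Most stem cell genes did not differ by 2-fold between SI and control. Of 20 genes, 8 passed the filter, 2 (Mecom and Hoxa9, which is on both lists, as is Meis1) were lower by 2-fold and none higher, with a median log2 ratio of -0.44. Mecom, a zinc finger factor of stem cells, was at 47.3 CPM in control, 127 in deleted (19 UMIs) and 16.2 in SI. After thinning before the rule Mecom was at -0.99 and Hoxa9 at -0.90 on the log2 scale, both short of 2-fold. Meis1 stood at 139 and 147 CPM in control and SI. Angpt1, the ligand of the Tie2 receptor, stood at 583 and 704. Car2, an erythroid carbonic anhydrase gene, was at 145 CPM in control and 32.4 in SI. The 4 megakaryocyte genes that passed split evenly. Cd9 was at 93.5 CPM in control and 30.5 in SI, and Pf4, platelet factor 4, at 64.8 and 16.6, but 82.7% of the Pf4 UMIs of control lay in 3 cells. In contrast, Itga2b, the CD41 integrin chain, was at 79.6 and 90.2 CPM and Plek, pleckstrin, at 75.8 and 113. Their median log2 ratio of -0.70 turned to 0.19 with fewer than 5 Elane UMIs. By Mpo group Pf4 was at 0.185, 0.151 and 2.14 times control.

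Receptor genes changed little, with 1 of 16 higher by 2-fold in SI, none lower, and a median log2 ratio of 0.09. That 1 was Csf2ra, a chain of the GM-CSF receptor, at 44.0 CPM in control and 92.7 in SI, a log2 ratio of 1.06 that was 0.82 without the condition on Fcer1a. Kit stood at 272 and 264 CPM and Csf3r, the G-CSF receptor, at 63.2 and 72.8. Monocyte and dendritic genes split as well: of 7 that passed, Ms4a6c and Cd68 (25.2 and 61.7 CPM) were higher by 2-fold (Cd68 at a log2 ratio of 1.26, and 0.90 after thinning before the rule), while Lyz2 (235 and 211 CPM) and Ly6c2 (39.9 and 33.1) were not.

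**Figure D2:**
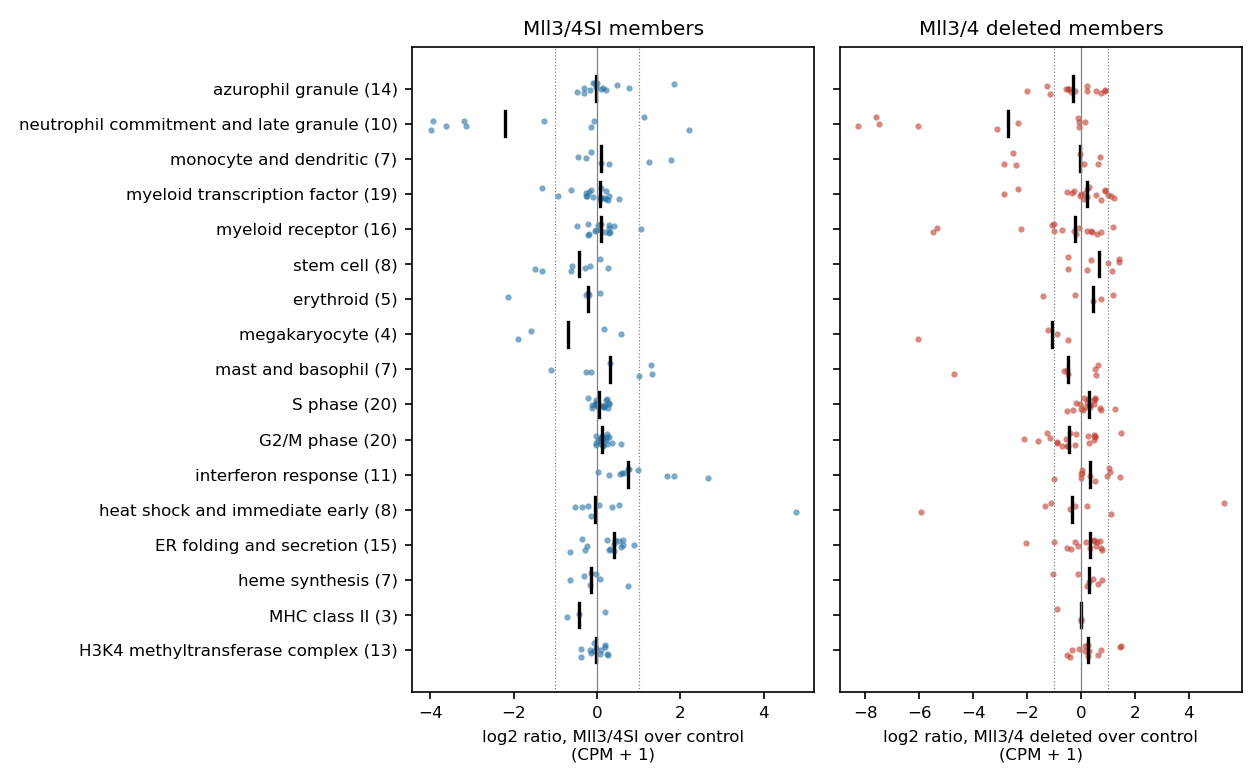
Log2 ratio to control, with 1 CPM added, of each listed gene that passed the filter in SI members (left) and deleted members (right); the number of such genes is in parentheses, black bars are medians, and dotted lines mark 2-fold. The interferon list has the highest median in SI among the lists drawn (0.75), and the 2 panels differ in their horizontal scale.

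Interferon response genes were higher in SI as a list. Of 19 genes, 18 were measured and 11 passed the filter, and all 11 had a log2 ratio above 0, with 3 past 2-fold and a median of 0.75. Irf7, one of those 3, passed the filter only through SI. Ifi27l2a, another of them, would not have reached a mean of 20 CPM with SI at the control level. Without a filter all 18 measured genes had a log2 ratio above 0. Over all 6926 genes past the filter the median was 0.04. Isg15, a ubiquitin-like modifier, was at 18.3 CPM in control, 40.0 in deleted (6 UMIs) and 68.3 in SI. Ifi27l2a was at 13.1, 26.7 (4 UMIs) and 88.4 CPM. Irf7, the factor that amplifies type I interferon, was at 13.4 CPM in control, 13.3 in deleted (2 UMIs) and 45.6 in SI. Bst2, tetherin, the most abundant of the list, stood at 160, 80.0 (12 UMIs) and 274 CPM. Summed over the measured genes the level was 436 CPM in control (415 to 458) and 872 in SI (854 to 890), a ratio of 2.0 (1.90 to 2.11). On the same scale the median member had 3.49 in control and 5.95 in SI, and the 90th percentiles were 8.41 and 19.4.

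A motif of interferon-responsive promoters, not used in the counts, was present in some of these genes and absent from others in the window searched. The promoters of 3 genes with a match are shown to make it visible. The sequences are the 150 bases before the RefSeq start in GRCm38.p6, 5′ to 3′ on the gene's strand, with capitals on matches to GAAA NN GAAA, read without the spaces and with N for any base, the core of the interferon-stimulated response element, or to its reverse complement. Overlapping matches are joined.
Isg15, chr4:156200819-156200968, minus strand: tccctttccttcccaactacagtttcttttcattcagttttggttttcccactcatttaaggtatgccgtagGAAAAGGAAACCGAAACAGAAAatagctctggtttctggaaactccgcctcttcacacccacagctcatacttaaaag
Bst2, chr8:71537473-71537622, minus strand: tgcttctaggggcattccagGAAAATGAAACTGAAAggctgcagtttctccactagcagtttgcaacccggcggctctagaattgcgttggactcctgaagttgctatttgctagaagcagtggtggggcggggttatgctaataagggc
Gbp2, chr3:142620513-142620662, plus strand: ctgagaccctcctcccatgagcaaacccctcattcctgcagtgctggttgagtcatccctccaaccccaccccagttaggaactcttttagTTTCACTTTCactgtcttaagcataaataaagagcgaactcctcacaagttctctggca
Isg15 holds 3 overlapping matches, the first starting 78 bases before the start site, Bst2 holds 2 from 130 bases before it, and Gbp2 holds 1 from 59 bases before it. In windows of 300 bases around the start, 8 of the 13 listed genes found in the RefSeq table had a match, against 3.99% of the 27025 genes with a promoter there. The list was picked as interferon response genes, so such an excess follows in part from the choice and says nothing about these cells. Of the 11 genes that passed the filter 8 were in the table, 4 of them with a match (Isg15, Bst2, Stat2 and Gbp2) and 4 without (Irf7, Oasl2, Xaf1 and Ifit2). Among all 6926 genes past the filter, 5575 were in the table and 3.80% of those had a match. A match describes letters only. Gbp2, with a match, was at 19.4 CPM in control and 24.1 in SI, and Irf7, with none in this window, had a larger ratio.

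Genes of protein folding in the endoplasmic reticulum (ER) had a summed ratio of SI to control of 1.32 (1.30 to 1.35), which was 0.97 and 1.05 in members of fewer than 30 Mpo UMIs. Of 15 measured genes, none passed 2-fold, 11 had a log2 ratio above 0, and the median was 0.41, against 0.04 over all 6926 genes. Calr, calreticulin, which chaperones myeloperoxidase, was at 642 CPM in control and 988 in SI. Hspa5 (BiP) was at 304 and 443, and Sdf2l1 at 85.6 and 160. Atf4 and Xbp1, factors of the unfolded protein response, were at 92.98 and 81.2 CPM in control and 59.4 and 66.1 in SI.

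Cell cycle lists were close to control. None of 20 S phase and none of 20 G2/M genes passed 2-fold in SI, with medians of 0.05 and 0.13, against 0.04 over all 6926 genes. Mki67 stood at 206 CPM in control and 242 in SI, and Pcna at 148 and 155. Of the G2/M genes 17 of 20 had a log2 ratio above 0, the largest being Bub1, at 21.1 and 32.0 CPM. The 13 histone H3 lysine 4 methyltransferase complex genes that passed had a median of -0.01, with none past 2-fold.

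The 12 genes highest in SI by ratio were Serpina3i, Hspa1b, Scin, Ifi27l2a, Slc16a11, Hp, Epha7, Igfbp7, Cd69, Ms4a3, Isg15 and Mc5r. Of these, Serpina3i, Scin and Cd69 were under 20 CPM in both control and deleted and passed the filter only through SI, so they had to be higher there. Igfbp7, Hp, Epha7 and Ifi27l2a would not have reached a mean of 20 CPM with SI at the control level. The filter thus favoured their direction too. Serpina3i, a serine protease inhibitor gene, had no UMI in the control and deleted members and 1313 in SI (129.5 CPM). That is 158 times a floor of 3 UMIs over the control members. The exact 95% lower limit of the ratio of SI to control is 128. A UMI was present in 61.1% of SI members. Scin, scinderin, an actin-severing protein, stood at 7.66 CPM in control and 111 in SI, with no UMI in deleted. Hspa1b, an inducible Hsp70 gene, was at 0.547 CPM in control (2 UMIs), 60 in deleted (9 UMIs, in 2 cells) and 41.5 in SI, while its list partners Hspa8 (1914 and 1658 CPM in control and SI) and Dnajb1 (53.6 and 55.0) differed by far less. Igfbp7, a secreted insulin-like growth factor binding protein, was at 23.0 and 97.0 CPM and Cd69, a lectin-like early activation antigen, at 16.1 and 67.0. Hp, haptoglobin, stood at 18.1 and 87.3.

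Serpina3i has close copies beside it, so its level is uncertain where reads could be split between them. Serpina3g (chr12:104236245-104241939) was at 159 CPM in control, 240 in deleted and 47.4 in SI, and Serpina3f at 3.83, 6.67 (1 UMI) and 20.6. Serpina3i lies at chr12:104263122-104269372. The 150 bases before each start are shown because these neighbours differed in opposite directions.
Serpina3i, chr12:104262972-104263121, plus strand: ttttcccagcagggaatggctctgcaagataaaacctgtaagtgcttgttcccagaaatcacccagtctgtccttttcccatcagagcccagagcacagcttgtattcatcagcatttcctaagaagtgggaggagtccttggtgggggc
Serpina3g, chr12:104235997-104236146, plus strand: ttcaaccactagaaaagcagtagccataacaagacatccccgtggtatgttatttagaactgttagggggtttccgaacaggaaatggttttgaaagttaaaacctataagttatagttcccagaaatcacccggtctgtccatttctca
In a global alignment of their 300-base RefSeq windows, 184 of 231 aligned bases were identical (79.7%). Aligned alike, Serpina3i and Serpina3f shared 83.3%. Serpina3i and Ms4a3, on another chromosome, shared 53.2%. For Serpina3g and Serpina3f the value was 49.6%, but their windows share stretches of sequence that lie at different distances from the start. A global alignment of whole windows can miss such stretches. The 49.6% is therefore not read as a lack of likeness between Serpina3g and Serpina3f.

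The 12 lowest in SI were Camp, Ngp, Lcn2, Nkg7, S100a9, S100a8, S100a6, Car2, Pf4, Prkg1, Sdsl and Hmga2. Of these, Camp, Ngp, Lcn2, S100a6 and Pf4 were under 20 CPM in both deleted and SI and passed the filter only through control, so they had to be lower in SI. Camp, Ngp, Lcn2, S100a9 and S100a8 rested on few control cells, with 90.3% to 99.3% of each gene's control UMIs in 3 cells. Nkg7 (chr7:43437073-43438249), a membrane protein gene of cytotoxic granules, stood at 396 CPM in control (376 to 417), 300 in deleted (45 UMIs) and 39.6 in SI (35.8 to 43.6). It was spread over the members, with a UMI in 87.4% of control and 24.2% of SI members and in 81.1% and 14.0% after thinning to 5000 UMIs. In the erythroid reference the thinned shares were 38.7% and 11.7%. S100a6, a calcium-binding protein gene, was at 56.1 and 10.7 CPM, and Hmga2, a chromatin protein of fetal and early progenitors, at 34.5 CPM in control, 240 in deleted (36 UMIs, 83.3% of them in 3 cells) and 9.17 in SI.

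**Figure D3:**
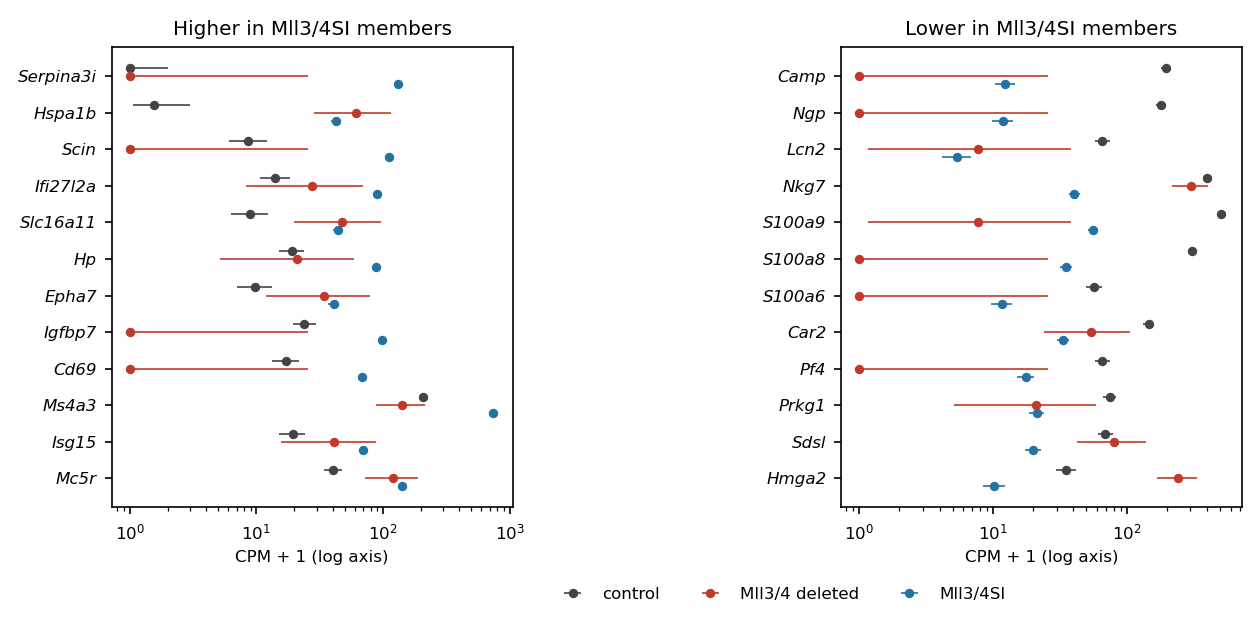
CPM plus 1 on a log axis of the 12 genes highest (left) and 12 lowest (right) in SI members relative to control, with exact 95% Poisson intervals, in the control, deleted and SI members. Nkg7 is at 396 CPM in control and 39.6 in SI, and the wide bars of the deleted members come from 14 cells.

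The lower secondary granule genes rested on 3 cells. Camp, Ngp, Ltf, Lcn2, S100a8 and S100a9, genes of later neutrophils, had 4750 UMIs in the control members, of which 2190, 1643 and 832 were in 3 cells and 6 in the next. The SI members had 1203, of which 910 and 48 were in 2 cells. With members of 10 or more such UMIs left out, the level was 23.4 CPM in control and 24.2 in SI. The deleted members had 2 UMIs, or 13.3 CPM. The median log2 ratio of the neutrophil commitment and late granule list accordingly went from -2.20 to 0.06. Other genes of that list did not rest on those cells: Hp and Cebpd (35 and 77.5 CPM) were higher in SI, and Padi4, which citrullinates histones, lower (63.2 and 25.5), although Cebpd (0.83 as a mean of per-cell CPM) and Padi4 (-0.77 after thinning) then fell short of 2-fold. By Mpo count, Hp in SI was at 1.67 times control (0.448 to 7.59) in members of 5 to 9 Mpo UMIs and at 1.62 (0.704 to 4.17) with 10 to 29, both within counting error. It was at 2.07 (1.21 to 3.71) with 30 to 59 and at 3.17 (2.27 to 4.55) with 60 or more, and these intervals overlap. The 3 control cells had 6 to 53 Mpo UMIs and 2412 to 10183 UMIs in all. Whether they hold RNA of more than 1 cell was not tested.

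**Figure D4:**
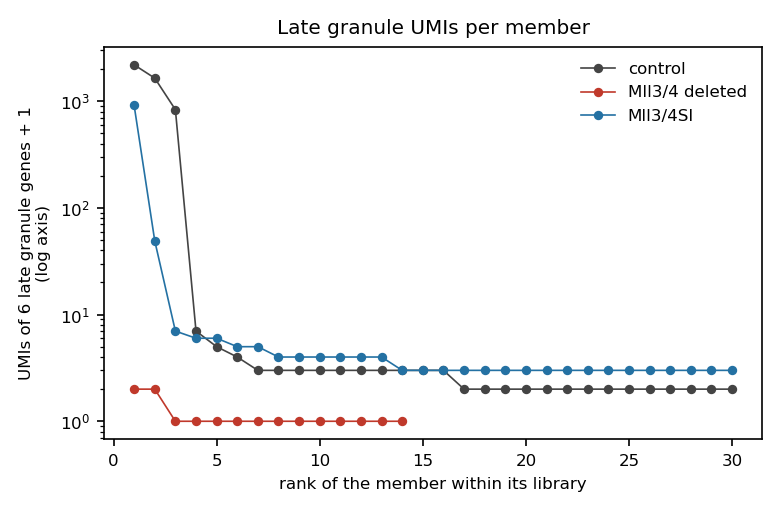
UMIs of the 6 late granule genes, plus 1, on a log axis, in the 30 highest members of the control and SI libraries and all 14 of the deleted library, ranked within each library. Counts drop from 832 to 6 between the third and the fourth control member.

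Because SI members had more Mpo, the comparison was repeated within members grouped by Mpo count. With 5 to 9 Mpo UMIs there were 104 control and 111 SI members, with 10 to 29 there were 146 and 237, and with 30 or more 178 and 546. Median Mpo was 7 and 6 UMIs in the first group and 17 and 18 in the second, but 50.5 in control and 89.5 in SI in the third, so that group is not matched for Mpo. It was therefore split after this was seen, at 60 UMIs. With 30 to 59 there were 108 control and 165 SI members, with medians of 38 and 43, and with 60 or more 70 and 381, with medians of 79.5 and 131. No group was matched for depth, which over all members was higher in SI (median 10590 UMIs, against 8099.5 in control). At a like raw Mpo count a deeper cell has fewer Mpo CPM, and the part of depth in the ratios below was not tested. Cpa3 was higher in SI in each group, with ratios of 2.22, 2.74 and 2.23. Ms4a3 was also higher in each, with ratios of 1.48 (1.10 to 2.0), 2.56 (2.16 to 3.05) and 3.28 (2.99 to 3.59), and of 2.32 (2.0 to 2.70) with 30 to 59 Mpo UMIs. Hdc was at 1.09 (0.583 to 2.05) and 1.10 (0.795 to 1.53) in the lower groups and 2.30 (1.97 to 2.70) in the highest, where it was 1.36 (1.05 to 1.77) with 30 to 59 Mpo UMIs. Nkg7 was lower throughout, with ratios of 0.182, 0.0935 and 0.0926. Isg15 was higher throughout, with ratios of 3.64, 4.77 and 3.96, and the interferon sum likewise, with 2.34, 2.09 and 2.15. Prtn3 was lower in SI in each group, with ratios of 0.642 (0.573 to 0.719), 0.593 (0.554 to 0.636) and 0.943 (0.912 to 0.976), although it was level over all members. The third value splits into 0.599 (0.565 to 0.635) with 30 to 59 Mpo UMIs and 0.958 (0.915 to 1.0) with 60 or more. With 30 to 59, Cpa3 was at 2.75 (2.48 to 3.06), Nkg7 at 0.13 (0.103 to 0.162), Isg15 at 4.62 (2.74 to 8.34) and the interferon sum at 2.3 (2.06 to 2.57). The azurophil sum was 0.873 (0.831 to 0.917) and 0.866 (0.839 to 0.894) times control in the lower groups and 1.12 (1.10 to 1.14) in the highest, but 0.862 (0.837 to 0.887) with 30 to 59 Mpo UMIs. Ctsg was at 0.743 (0.639 to 0.863) and 0.794 (0.743 to 0.850) times control in the lower groups and at 0.905 (0.856 to 0.957) with 30 to 59. It was above control, at 1.20 (1.15 to 1.25), with 60 or more, where Mpo differed between the libraries. The ER folding sum did not differ beyond counting error with 5 to 9 Mpo UMIs (0.970, 0.913 to 1.03) and was 1.29 times control with 30 or more (1.25 to 1.32), or 1.04 (1.0 to 1.08) with 30 to 59. The stem cell sum, 0.915 times control over all members, was 1.08 and 1.13 in the lower groups and 0.95 in the highest, or 1.16 (1.09 to 1.24) with 30 to 59.

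**Figure D5:**
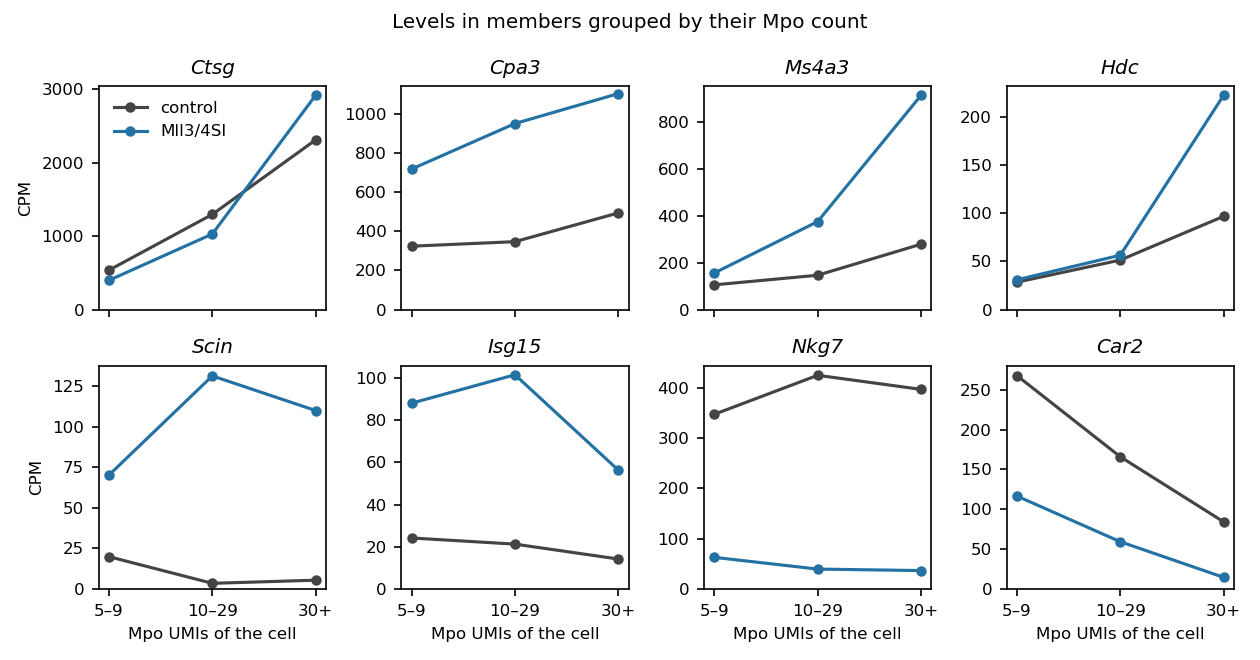
CPM of 8 genes in control and SI members grouped by their Mpo UMIs (5 to 9, 10 to 29, 30 or more); vertical axes start at 0 and differ between panels. Cpa3, Scin and Isg15 are above control and Nkg7 and Car2 below it in each of the 3 groups. The Ctsg lines cross in the last group, whose median Mpo was 50.5 UMIs in control and 89.5 in SI.

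Several of these differences were also present outside the members. In cells left out by Elane alone, Serpina3i had no UMI in control and 54.2 CPM in SI, and in the cells with Klf1 and no Mpo it had 1 UMI in control and 44.0 CPM in SI. Isg15 was at 20.2 CPM in control and 170 in SI in the latter, a larger ratio than in the members. The interferon sum there was 3.22 times control, against 2.0 in the members and 1.90 in the cells left out by Elane. Nkg7 was lower in each, at 886 and 272 CPM in the Elane cells and 105 and 23.4 in the Klf1 cells. Ms4a3 differed by less where Elane was high (1035 and 1529 CPM) and by more in the cells left out by Flt3 (42.0 and 335). Cpa3 followed a like order, at 186 and 441 CPM in the Elane cells and 38.9 and 346 in the Flt3 cells. In the cells left out by Fcer1a the mast and basophil sum was 3169 CPM in control and 3081 in SI; their number differed, as given above. Igfbp7 was near 0 in the Klf1 cells (0.0436 and 2.16 CPM), unlike in the myeloid groups.

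The deleted members were 14 cells, and every value rests on few UMIs. Of the 6926 genes, 687 were higher by 2-fold or more (9.92%) and 394 lower (5.69%), but the median gene had 9 UMIs in the deleted members. With trimmed mean (TMM) scaling the split turned to 347 higher and 650 lower, as the median log2 ratio moved from 0.152 to -0.092. Directions of genes near that shift are therefore not read. Among the 692 genes of at least 200 CPM, with a median of 55.5 UMIs in deleted, 18 were higher (2.6%) and 6 lower (0.867%). The mean includes the deleted members, and 26 of the 692 were under 200 CPM in both control and SI and passed only through them. Of these 26, 8 are among the 18 higher, so their direction was set by the filter, and none is among the lower. The genes of at least 200 CPM are described first, a choice made after their values were seen.

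Def8, a gene of lysosome positioning, at chr8:123423527-123463270, had the highest ratio of this set, which it passed into only through the deleted members. It was at 81.2 CPM in control, 607 in deleted (488 to 745) and 49.9 in SI, a ratio of 7.47 (5.84 to 9.48) between deleted and control. All 14 deleted members had a Def8 UMI. The same held outside the members, with 63.3 and 726 CPM in the Elane cells and 55.9 and 812 in the Klf1 cells of control and deleted. The deleted Klf1 cells also held B-lineage RNA, with a list sum of 3288 CPM against 16.4 in control and a contig in 13 of 124 cells against 1 of 1405, and its part in the Def8 level was not tested. Rnf220, a ubiquitin ligase gene, was at 226 CPM in control and 767 in deleted, where 3 cells held 54.8% of its 115 UMIs. In the Elane cells it was at 135 and 160 CPM, and in the same Klf1 cells at 157 and 139. Wwox, Fut8, Slco3a1, Arid1b, Msi2, Pola1, Ssbp2, Etv6, Angpt1 and Runx1 followed, with ratios from 2.15 to 3.01. Of these, Wwox, Slco3a1, Arid1b, Msi2, Pola1 and Ssbp2 were also under 200 CPM in both control and SI. For these 10 the 3 members with the most UMIs held between 47.5% and 74.1%, and with TMM scaling Etv6, Angpt1 and Runx1 came to 0.98, 0.90 and 0.86 on the log2 scale, short of 2-fold. After thinning before the rule 24 of the 63 named genes past 2-fold in the deleted members were no longer past it, Wwox (0.72), Arid1b (0.98), Msi2 (0.86), Pola1 (0.90) and Ssbp2 (0.79) among them.

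Lower in the deleted members were Tyrobp, an adaptor of activating myeloid receptors, at 244 CPM in control and 80.0 in deleted (12 UMIs), Ifitm1 (538 and 200), Hist1h2ae (464 and 187), Ctla2a (304 and 133) and Serpinb1a, an inhibitor of neutrophil proteases (251 and 113). After the same thinning Ifitm1 was at -0.27, Hist1h2ae at -0.53, Ctla2a at -0.66 and Serpinb1a at -0.90. Tyrobp was also lower in the Elane cells, at 326 and 150 CPM. At a mean of at least 20 CPM the 12 lowest by ratio were S100a8, Camp, Ngp, S100a9, Pf4, Jun, Lpcat2, S100a6, Clec12a, Neurl3, Dcaf11 and Slc14a1. Of these S100a9 had 1 UMI in deleted and the others none. With the deleted members set at a floor of 3 UMIs, Jun came to 3.02-fold and Clec12a to 2.19-fold lower. The exact 95% upper limits of the ratios of Jun and Clec12a to control are 0.41 and 0.569. For Clec12a that interval does not exclude a difference smaller than 2-fold. Camp, Ngp, Pf4 and S100a6 passed the filter only through control, as did Ctla2a at 200 CPM, so they had to be lower in deleted. With control at the deleted level, S100a8, Clec12a, Neurl3, Dcaf11 and Slc14a1 would not have reached a mean of 20 CPM. Nor would Tyrobp and Serpinb1a have reached 200 CPM, so the filter favoured these directions too. The control level of S100a8, Camp, Ngp and S100a9 rests on the 3 cells described above. The highest in the same range, besides Def8 and Hmga2, had 7 to 14 UMIs: Hspa1b, Pld1, Naprt, Bcl3, Cadps2, Prickle1, Slc16a11, Selenom, Dip2c and Tmem94. Of these, 8 were under 20 CPM in both control and SI and passed the filter only through the deleted members, so they had to be higher there. The same holds for 296 of the 6926 genes, of which 188 are among the 687 higher and none among the lower. Hspa1b and Slc16a11 would not have reached a mean of 20 CPM with deleted at the control level, so the filter favoured their direction too.

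The list counts below stand beside 9.92% higher and 5.69% lower by 2-fold over all 6926 genes in the deleted members. The median log2 ratio of all those genes was 0.15. By list, the azurophil genes of the deleted members kept a sum of 6053 CPM (5666 to 6460), 0.930 times control (0.869 to 0.994). Of 14, none was higher and 3 were lower by 2-fold, Cst7 furthest at 110 and 26.7 CPM (4 UMIs; a log2 ratio of -2.0 that was -0.57 after thinning). Prtn3 was at 1792 CPM in control and 2120 in deleted. Myeloid factors split: Irf8 and Gfi1 had 1 UMI each (Irf8 at -2.86, and -0.58 after thinning), Spi1 stood at 253 CPM and Cebpa at 73.3 (11 UMIs), and Runx1, Etv6 and Meis1 were higher by 2-fold. With TMM scaling none of these 3 kept 2-fold (Meis1 0.76). Stem cell genes had a median log2 ratio of 0.68, with 4 of 8 higher by 2-fold and none lower. Of their UMIs, 25.7% and 25.1% lay in 2 of the 14 cells, and the median member had 15.3 per 10000 against 13.5 in control. Among the 4 were Mecom and Mllt3 (29.3 and 80.0 CPM, 12 UMIs). After thinning before the rule, which selects 28 deleted cells in place of the 14, Mecom was at 0.44 and Mllt3 at 0.23. Of 16 receptors 1 was higher and 5 were lower by 2-fold, with Cd93 at 96.8 and 20 CPM (3 UMIs) and Fcgr3 and Clec12a without a UMI. Mast and basophil genes summed to 893 CPM, 0.959 times control (0.801 to 1.14). The interferon sum was 1.06 times control (0.817 to 1.34).

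B-lineage transcripts were present at low counts in the deleted members. The 20 genes had 54 UMIs in all, 360 CPM (270 to 470), 3.88 times control (2.86 to 5.19), and each of the 14 cells had at least 1, with a median of 4 and a highest of 7. In the same library the sum was 269 CPM in the Elane cells, 3288 (3209 to 3369) in the Klf1 cells, 113 of 124 of which had a UMI with a highest of 400, and 16231 CPM in cells with at least 3 Cd79a UMIs, where the median cell had 121. Cells with more than 2 Cd79a UMIs had been left out by the rule, 5 of them in the deleted library by that condition alone. Of the 14 deleted members 8 had no Cd79a UMI, and the others held 7 UMIs in all. In control 428 of 428 members and in SI 893 of 894 had none. The part of free RNA in these counts was not tested. No member had an assembled immunoglobulin contig. That was 0 of 428 in control, 0 of 14 in deleted and 0 of 894 in SI. A floor of 3 cells of the total would be 0.701%, 21.4% and 0.336%, and the exact 95% upper limits are 0.858%, 23.2% and 0.412%. Over all filtered cells a contig was present in 22.8% in the deleted library, against 0.303% in control and 0.215% in SI. That base includes cells with at least 3 Cd79a UMIs, which the rule leaves out, so it is not like the members. In the deleted Elane cells, held to the same Cd79a limit, it was 1 of 80 (0.0316 to 6.77%).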

How the data were processed

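Per the labels' protocols, transcripts were captured from their 5′ ends with version 2 chemistry of 10x Genomics, and read into UMI counts with Cell Ranger 7.1.0 on mm10, per the submitters' processing notes. The deposited values were raw UMI counts per gene and barcode, after the authors' cell calling, with a deposited table of immunoglobulin contigs. Barcodes with at least 1000 UMIs, 500 genes and at most 10% mitochondrial UMIs were kept. The members and the 21 gene lists were chosen with earlier results of these data known. UMIs were summed over the members of a library and given as CPM, with 1 CPM added for log2 ratios. Count models were not used because each group was 1 library. Intervals were exact Poisson, Clopper-Pearson, or conditional binomial for ratios, at 95%. Genes named were the 12 highest and 12 lowest ratios at a mean of at least 20 CPM, without the rule genes, receptor segments, mitochondrial, ribosomal protein, Gm-numbered, Rik, Xist, Tsix and Y-linked genes, with up to 4 genes of a list by size of ratio. Other listed genes were named for their role after their values were seen, and the set at 200 CPM was added then. Scrublet (scanpy 1.11.5) scored doublets in each library. No member was removed for its score; leaving out members with a score above 0.25 was an alternative. TMM factors came from edgeR 4.0.16. The ratio and interval steps were tested on simulated data. Positions are those of GENCODE M21. Libraries of all 4 samples were read, and the control B220lo library was used only for the closing section.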

Additional observations from a re-analysis of the deposited data

Results flagged for a closer look

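The control B220lo library, which entered no comparison, held 13 cells that met the rule among 16329 filtered cells (0.0796%). Their median Mpo count was 105 UMIs, above the medians of 21.5 and 46 in the control and Mll3/4SI Kit+ members, and 7 of the 13 had no Elane UMI. They were singled out because a sort on low B220 would not be chosen to collect myeloid progenitors. They held 46 UMIs of Irf8, 20 of Tcf4 and 74 of Ms4a3. Serpina3i, without a UMI in the 428 control Kit+ members, had 8 UMIs in these 13 cells, whose library is also labelled control.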

How the results depend on the processing

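No paired analysis was possible because each group was 1 library, and for the same reason no replicate could be left out. The log2 ratio of the share of members, SI over control, went from 1.04 to 1.25 with at least 10 Mpo UMIs and to 1.85 without the condition on Fcer1a, and that of deleted went from -5.26 to -1.60 among cells with fewer than 3 Cd79a UMIs. Genes higher in deleted, 687 as reported, numbered 439 after thinning, 385 with 10 CPM added, 347 with TMM, 353 with median-of-ratios scaling, 1298 at 5 CPM, 223 at 50 CPM, 18 at 200 CPM and 1891 with no filter. Genes lower in deleted, 394 as reported, numbered 655 in members without Cd79a, 231 with 10 CPM added, 650 with TMM, 639 with median-of-ratios scaling, 626 with totals free of rule, mitochondrial and ribosomal genes, 1062 at 5 CPM, 104 at 50 CPM, 6 at 200 CPM and 2882 with no filter. Genes higher in SI numbered 135 at 5 CPM, 20 at 50 CPM, 5 at 200 CPM and 301 with no filter. Genes lower in SI numbered 40 after thinning, 37 with 10 CPM added, 172 at 5 CPM, 28 at 50 CPM, 3 at 200 CPM and 397 with no filter. The SI median of the myeloid factors, 0.08, was -0.09 at 5 CPM and -0.13 with no filter. That of the mast and basophil list, 0.32, was 0.10 without the condition on Fcer1a, 0.46 after thinning, 0.09 at 5 CPM, 0.82 at 200 CPM and -0.15 with no filter. That of the megakaryocyte list, -0.70, was 0.19 with fewer than 5 Elane UMIs, 0.38 as a mean of per-cell CPM and 0.18 at 50 CPM. That of the neutrophil list was 0.06 without the late granule cells. The cause of these changes was not tested, beyond the number of genes that each filter admits. Of 1656 values of 106 genes named in the text for SI and 1775 of 113 for deleted, 6 and 7 changed direction from a main interval that excluded 0. For SI these were Clec12a -0.28, Irf8 -0.07, Runx1 -0.02 and Tyrobp -0.19 without the condition on Fcer1a, Lyz2 0.06 without late granule cells and Arid1b 0.06 as a mean of per-cell CPM. For deleted they were Ms4a2 0.32 without the condition on Fcer1a, Bst2 0.13, Bub1 -0.31, Cpa3 0.25, Dcaf11 0.30 and Ms4a2 0.27 after thinning, and Prtn3 0.00 with TMM. Shares of members with a UMI moved with depth by construction: Ms4a3, 41.8% in control and 72.9% in SI at 5000 UMIs, was in 25.6% and 56.9% at 2000, and 4 of 38 genes changed which library was higher at 2000. The settings at 200 CPM, without late granule cells and without the Fcer1a condition were chosen after seeing the data. With 14 deleted members, a gene at 20 CPM has about 3 UMIs, which limits every value in that library.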
